A study of Mus musculus with 12 samples.

Results

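The miR-17~92 cluster is a set of 6 microRNA hairpins cut from 1 primary transcript, namely miR-17, miR-18a, miR-19a, miR-20a, miR-19b and miR-92a. Its members were found by name in 12 lists of deposited miRNA values, with the species prefix, strand mark and copy number set aside. All 6 members were found, as 10 names counting the star (passenger) strands and 432 of 7354 list entries, among 326 miRNAs in the whole series. The rule goes by name and uses no level or ratio.

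The study profiled small RNAs of 19 to 30 nt that had a phosphate at the 5′ end and a hydroxyl at the 3′ end, in 4 mouse cell types on a C57BL/6 backcrossed background. There was 1 library for each cell type and genotype. DN3 thymocytes, T cell precursors before the CD4 and CD8 stage, were sorted from thymus of mice carrying Lck-cre. CD4+CD25+ regulatory T cells (Treg) and CD4+ T cells (CD4) were sorted from lymph nodes and spleen of mice carrying CD4-cre, and only the title of the series calls the CD4+ cells activated. These mice were 6 to 7 weeks old. Fibroblasts (MEF) were derived from E14.5 embryos carrying Rosa26-CreER, an inducible Cre, although their labels repeat the age of 6 to 7 weeks. Each cell type was Dicer-deficient, Drosha-deficient or control, and the controls carried the same Cre. The labels do not say whether animals were pooled, and the miRNA lists hold no measure of Drosha or Dicer, so how complete each deletion was is not known from them. Hereafter "Dicer", "Drosha" and "control" name the libraries.

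As background, Drosha frees each hairpin from its nuclear primary transcript, and Dicer then cuts the hairpin into a duplex of 2 strands, of which 1 is usually kept by Argonaute. A cell that lacks either enzyme makes no new miRNA of this kind, while miRNA made before the deletion can remain for days. The cluster is known as an oncogene (oncomiR-1) that is highly expressed in dividing lymphocyte precursors and promotes their growth and survival. It has a pair of paralogs in mammals, the miR-106b~25 cluster and the X-linked miR-106a cluster.

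The mature sequences are shown because the members fall into 4 families by their seed, bases 2 to 8, the stretch that pairs with target mRNAs. They are from RefSeq (GRCm38.p6), with the seed in capitals, and all 6 members matched.
miR-17: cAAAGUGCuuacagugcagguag
miR-20a: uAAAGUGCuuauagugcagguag
miR-18a: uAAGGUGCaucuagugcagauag
miR-19a: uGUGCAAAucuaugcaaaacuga
miR-19b: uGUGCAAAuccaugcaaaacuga
miR-92a: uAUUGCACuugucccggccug
miR-17* (miR-17-3p): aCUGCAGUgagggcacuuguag
miR-106a (paralog of miR-17): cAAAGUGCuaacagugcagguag
miR-17 and miR-20a share the seed AAAGUGC with 4 paralogs, miR-106a, miR-106b, miR-93 and miR-20b. miR-18a has the seed AAGGUGC, shared with miR-18b, and miR-19a and miR-19b have GUGCAAA. miR-92a has AUUGCAC, shared with miR-25, miR-32 and miR-92b among others.

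Several of these molecules are nearly identical, which bears on how reads were assigned. Counting from the 5′ end and naming the first miRNA's base first, miR-17 and miR-106a differ by U10A, miR-19a and miR-19b by U11C, and miR-17 and miR-20a by C1U and C12U. In the DN3 and Treg lists, which give each distinct sequence, the 97 member sequences all matched a member hairpin without mismatch, and 0 matched a hairpin of another miRNA. In the CD4 and MEF lists, which give 1 value for each mature miRNA, that could not be checked.

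All 6 hairpins lie within an exon of the single annotated transcript of the host gene Mir17hg, on the plus strand of mouse chromosome 14 (chr14:115042879-115046727, GRCm38). Their starts lie 792 nt (miR-17), 972 nt (miR-18a), 1121 nt (miR-19a), 1278 nt (miR-20a), 1426 nt (miR-19b) and 1548 nt (miR-92a) downstream of the start of the host gene. Second copies of miR-19b (chrX:52741983-52742066) and miR-92a (chrX:52741838-52741928) lie in the paralogous X-linked cluster and give the same mature RNA. The deposited list of reads at genes held 0 rows naming the host gene, so the primary transcript was not measured here.

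Deposited totals ran from 893850 in CD4 Dicer to 1027032 in Treg Drosha, so libraries are on nearly the same scale. Each value is therefore a part of a near-fixed total, and a change in the total miRNA of a cell would not show. Higher, lower and fold below refer to such parts, not to amounts per cell. The lowest listed value, the floor, was 10 in the DN3 and Treg lists, 645, 526 and 20 in CD4 Dicer, Drosha and control, and 11, 13 and 11 in MEF Dicer, Drosha and control. A member not listed was taken as below that floor. Value steps implied about 6200, 7600 and 100000 reads for CD4 Dicer, Drosha and control and about 270000, 77300 and 275000 reads for MEF Dicer, Drosha and control. The coarsest step that fitted was taken, so the true depths may be greater. It made 70% of the low values whole in CD4 Dicer and 82.9% in MEF Dicer. In CD4 Dicer a first and a second part of the list, at 6100 and 6200 reads, fitted 100%. Read counts and intervals below rest on these steps. For DN3 and Treg the depth is unknown. T lymphocyte miRNAs (miR-142-3p, miR-142-5p, miR-150 and miR-181a) took 4.04% to 17.7% of the listed values in the 9 T cell libraries. In MEF they took 0.643% to 0.813%, with 2 or 3 of 4 listed. Of the fibroblast miRNAs 7 of 7 were listed in MEF, at 1.225% to 2.17%. In the T cell libraries 0 to 4 of 7 were listed, at 0% to 0.223%.

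The cluster was most abundant in DN3 thymocytes. The summed members, both strands, took 11.3% of the listed values in DN3 Dicer, 11.8% in DN3 Drosha and 14.2% in DN3 control. In Treg cells they took 1.78% in Dicer, 1.5% in Drosha and 2.48% in control. The CD4 cells gave 1.60% in Dicer, 0.578% in Drosha and 4.94% in control, and the fibroblasts gave 0.378%, 0.236% and 0.470% for Dicer, Drosha and control. In each cell type the control library had the highest share. Levels were not tested between cell types, since the lists come in a pair of formats, by sequence (DN3, Treg) and by miRNA (CD4, MEF). In such bulk samples fewer cells that make a miRNA and less of it per cell cannot be told apart.

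Within DN3 and Treg libraries miR-20a, a miR-17 family member, was the most abundant member. It stood at 61316 in Dicer, 79025 in Drosha and 91444 in control DN3 cells, and ranked 4 of 203, 3 of 188 and 3 of 208 names. In Treg it stood at 8884 in Dicer, 6990 in Drosha and 13305 in control. The control value was the highest in both cell types. In the CD4 and MEF lists miR-20a was a minor member, at 1129 in CD4 Dicer, not listed in CD4 Drosha and 3450 in CD4 control, and at 197, 52 and 251 in MEF Dicer, Drosha and control. This split follows the format of the lists, so cell type and list format cannot be told apart. Its MEF Drosha value rests on about 4 reads (95% exact Poisson interval 14.1 to 132 in deposited units, counting error only).

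miR-19b, of the family that has been tied to the oncogenic action of the cluster in mouse lymphoma, led the MEF lists, CD4 Dicer and CD4 control instead. The change of leading member goes with the list format as much as with the cell type. In CD4 Drosha it was below miR-17*, with about 14 and 16 reads. It stood at 5645 in CD4 Dicer, 1842 in CD4 Drosha and 19730 in CD4 control. In MEF it stood at 1633 in Dicer, 1098 in Drosha and 2345 in control, again with the control highest. DN3 cells had 8641 in Dicer, 4845 in Drosha and 6911 in control, and Treg cells 1286, 1122 and 2504 in Dicer, Drosha and control. Drosha was therefore the lowest of the 3 libraries in all 4 cell types for miR-19b. Its near-twin miR-19a, from a separate hairpin of the same transcript, was less abundant than miR-19b in every library that listed both, with a miR-19b to miR-19a ratio from 3.85 in DN3 control to 7.73 in MEF Drosha.

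**Figure D1:**
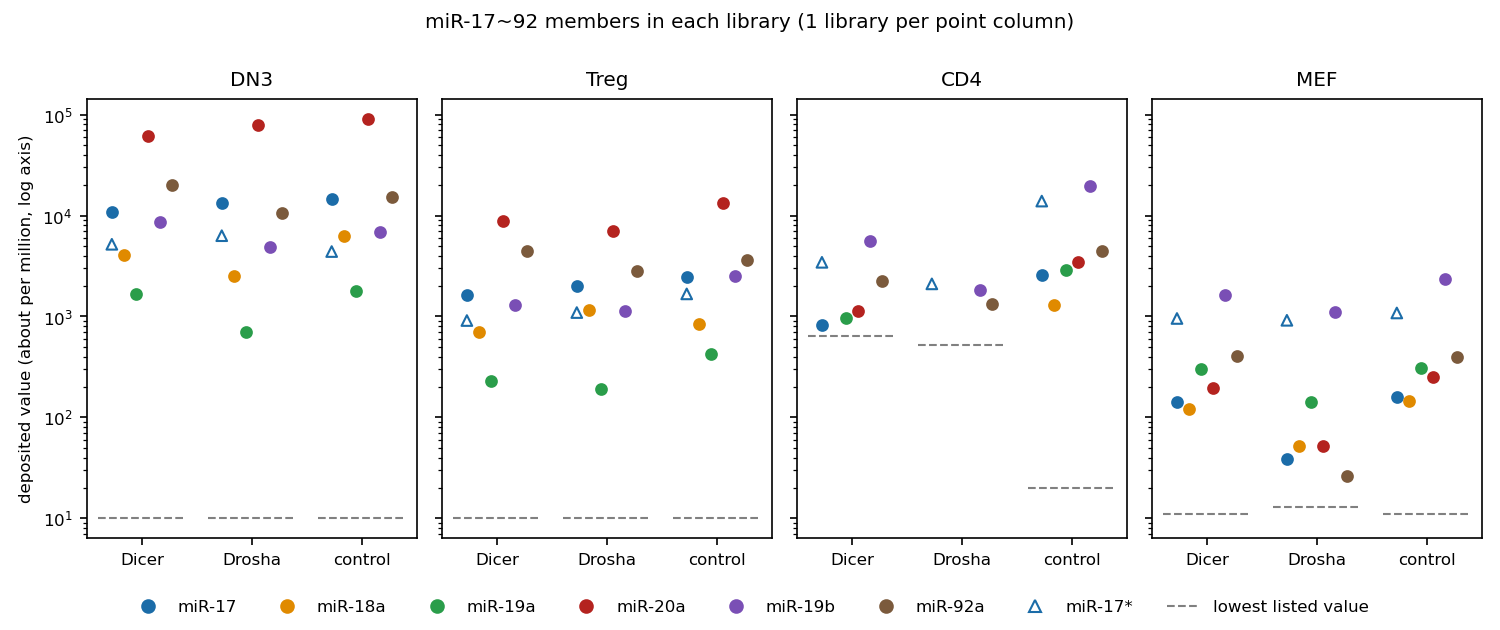
Deposited value (log axis) of each member's main strand and of miR-17* by library, with cell types in panels and Dicer, Drosha and control from left to right. Dashed lines mark the lowest listed value of a library, and miR-17, miR-18a, miR-19a and miR-20a have no point in CD4 Drosha, where the floor is 526.

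miR-92a, of a seed family other than that of miR-17, was also lowest in Drosha in all 4 cell types, again in deposited values. It stood at 19866 in DN3 Dicer, 10626 in DN3 Drosha and 15392 in DN3 control, and at 4430, 2812 and 3619 in Treg Dicer, Drosha and control. In both cell types Dicer, not control, was the highest. CD4 cells had 2258 in Dicer, 1316 in Drosha and 4460 in control, and MEF 408 in Dicer, 26 in Drosha and 400 in control. The MEF Drosha value of 26 stands for about 2 reads (95% exact Poisson interval 3.13 to 93.5), against about 110 reads in each of MEF Dicer and MEF control.

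miR-17, which gave the cluster its name, stood at 10911 in DN3 Dicer, 13359 in DN3 Drosha and 14461 in DN3 control, at 1630, 2001 and 2481 in Treg Dicer, Drosha and control, and at 141, 39 and 160 in MEF Dicer, Drosha and control. In CD4 it was at 820 in Dicer, not listed in Drosha and at 2560 in control. Control was the highest in each of the 4 cell types. miR-18a, whose hairpin depends on the RNA-binding protein hnRNP A1 for its cut by Drosha in human cells, stood at 4052 in DN3 Dicer, 2525 in DN3 Drosha and 6329 in DN3 control. In Treg its order was another one, with 709 in Dicer, 1153 in Drosha and 837 in control. The remaining miR-18a values were 1300 in CD4 control, which alone of the CD4 lists held it, and 122, 52 and 145 in MEF Dicer, Drosha and control. miR-19a stood at 1689, 701 and 1794 in DN3 Dicer, Drosha and control, at 227, 192 and 424 in Treg, at 968, not listed and 2860 in CD4, and at 300, 142 and 309 in MEF, each in that order of genotypes. For miR-19a Drosha was thus below Dicer and control wherever it was listed, in deposited values.

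**Figure D2:**
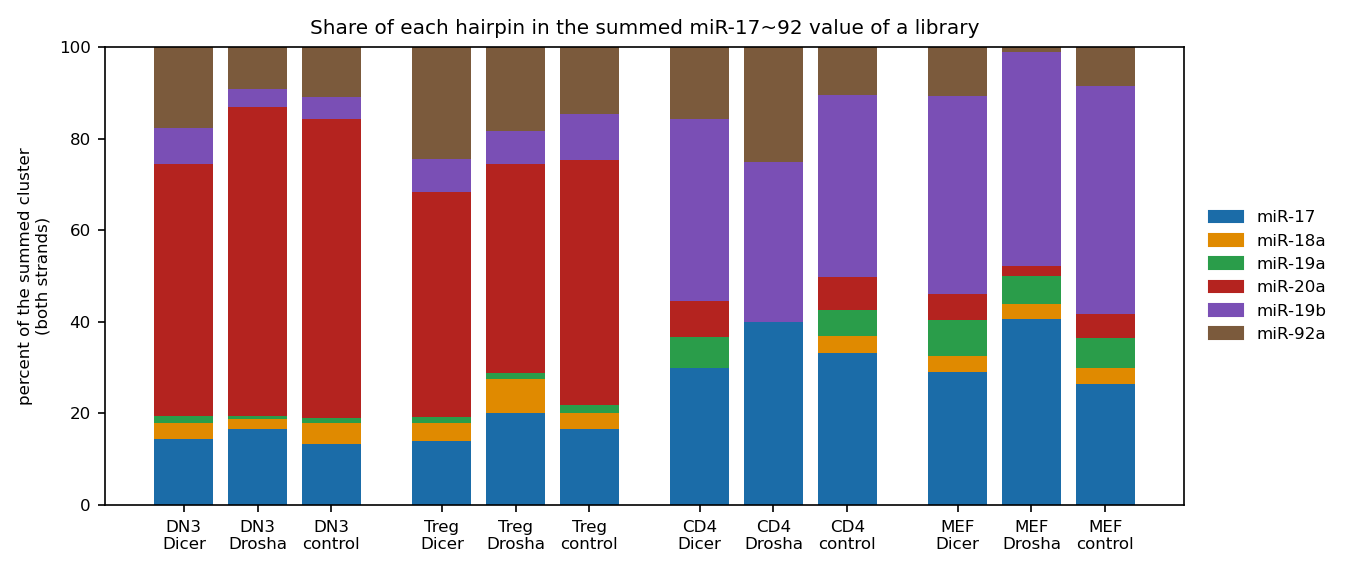
Share of each hairpin (both strands, percent) in the summed cluster value of each library, with Dicer, Drosha and control from left to right in each cell type. miR-20a takes 45.6% to 67.4% of the cluster in the DN3 and Treg libraries, and miR-19b leads in CD4 Dicer and control and in the 3 MEF libraries.

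Strands listed under star names were at low values apart from miR-17*. In the DN3 and Treg lists miR-92a* is the strand of the X-linked copy. The other strand of the chromosome 14 miR-92a hairpin is filed there as "pre", at 1194 in DN3 control, and is given further below. miR-20a* was listed in 8 of 12 libraries at 11 to 519, miR-92a* in 6 at 10 to 710 and miR-18a* in 5 at 11 to 460, with the highest value of miR-92a* and of miR-18a* in CD4 control. The miR-17* strand, by contrast, was listed in all 12 libraries at 912 to 13920. It stood at 5194 in DN3 Dicer, 6320 in DN3 Drosha and 4402 in DN3 control, so both deletion libraries were above control, and at 912, 1094 and 1675 in Treg Dicer, Drosha and control. In CD4 it stood at 3443, 2105 and 13920 in Dicer, Drosha and control and in MEF at 956, 917 and 1084.

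In the DN3 and Treg lists miR-17* was the lesser strand of its hairpin, and in the CD4 and MEF lists it was the greater. It made up 32.2% of the hairpin's 2 strands in DN3 Dicer, 32.1% in DN3 Drosha and 23.3% in DN3 control, and 35.9%, 35.4% and 40.3% in Treg Dicer, Drosha and control. In MEF it made up 87.1% in Dicer (95% exact interval 82.8 to 90.8%), 95.9% in Drosha (88.6 to 99.2%) and 87.1% in control (83.1 to 90.5%). CD4 control was at 84.5% (82.6 to 86.2%) and CD4 Dicer at 80.8% (60.6 to 93.4%). The split follows the format of the lists, so cell type and list format cannot be told apart here.

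**Figure D3:**
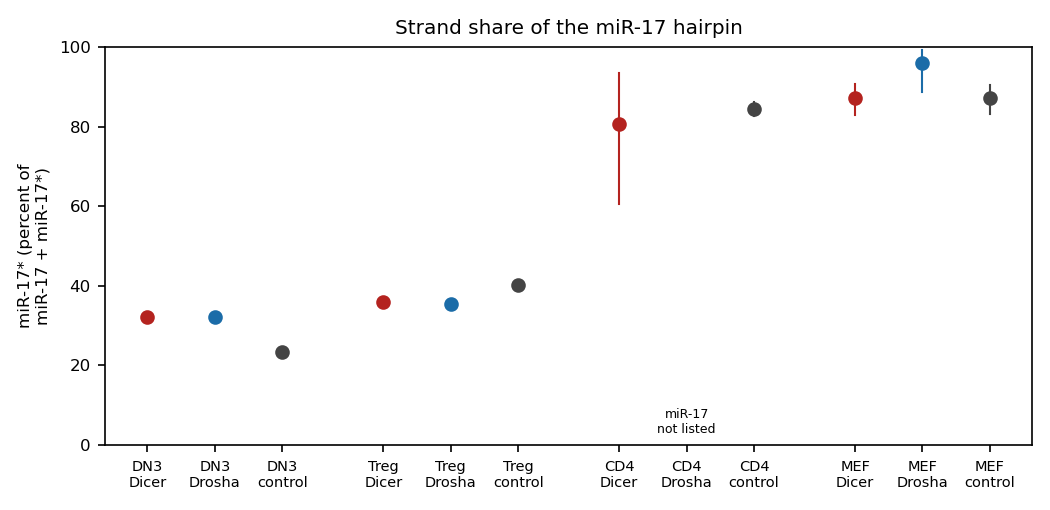
miR-17* as a percentage of miR-17 plus miR-17* by library, with 95% exact (Clopper-Pearson) intervals where reads could be implied from the values. The 6 DN3 and Treg libraries sit between 23.3% and 40.3%, and the 5 CD4 and MEF libraries with both strands between 80.8% and 95.9%.

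Dicer-deficient cells were set against control cells first. Ratios below are log2 values set against the median miRNA of the same pair of libraries, and they carry no test because there is 1 library per group. The median miRNA itself was shifted by 0.03 (DN3), -0.12 (Treg), -0.07 (CD4) and -0.19 (MEF) on the deposited scale. Only names listed in both libraries were compared. In CD4 the floors of 645 in Dicer and 526 in Drosha, against 20 in control, leave out names low in those libraries. Against control, the CD4 median and the CD4 shares of all miRNAs are therefore tilted toward names high in the deletion library. miR-92a had the highest ratio of all compared member strands in each of the 4 cell types, at 0.34 (DN3, of 9 strands), 0.41 (Treg, of 8), -0.91 (CD4, of 6) and 0.22 (MEF, of 7). The lowest were miR-18a in DN3 (-0.67), miR-19b in Treg (-0.84) and MEF (-0.33), and miR-17* in CD4 (-1.95). As a share of the cluster, miR-92a took 17.8% in Dicer and 10.9% in control DN3 cells, 24.5% and 14.6% in Treg, 15.8% and 10.4% in CD4, and 10.8% and 8.49% in MEF, with Dicer given first. The MEF difference of miR-92a is within counting error (log2 0.03 on the deposited scale, 95% exact interval -0.37 to 0.42). In CD4 Dicer its share is about 14 of 88 reads, with members under the floor counted as 0. On the deposited scale its CD4 interval (-1.865 to -0.22) overlaps those of the other CD4 strands compared, so its place there is uncertain.

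Outside CD4, few miRNAs stood far from the median miRNA in Dicer libraries, whether members or not. In DN3 0 of 9 member strands lay at least 1 log2 unit away, beside 7.65% of 183 miRNAs. The count was 0 of 8 in Treg, against 15.1% of 166, and 0 of 7 in MEF, against 4.26% of 235. With so few strands, counts of 0 are near these shares. In CD4 Dicer 5 of 6 were lower by that much, where 30.9% of 94 miRNAs were lower by it and 71.3% were past it in either direction. These CD4 figures cover only names that reach the floor of 645 in Dicer, so members can look low beside them. The 5 CD4 members ran from -1.95 for miR-17* to -1.495 for miR-19a, on about 5 to 35 reads each in Dicer. miR-18a was at least 2.02-fold lower in CD4 Dicer than the 1300 of control on the deposited scale, reckoned against the floor of 645.

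The summed cluster in Dicer stood at -0.36 (DN3), -0.34 (Treg), -1.73 (CD4) and -0.13 (MEF) relative to the median miRNA. In CD4 this rests on about 88 reads in Dicer and 4957 in control (95% exact interval -2.06 to -1.43). Without miR-19b and miR-92a, whose reference main strand is also encoded in the X-linked cluster, the MEF ratio was 0.01 and the DN3 ratio -0.53.

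In limma's test over the 4 cell types, with log2(value + 1), cell type as a block and cell types as the replicates, 0 of 185 miRNAs were called for Dicer against control (0%), with 4 at an unadjusted p under 0.05. Of the member strands 8 could be tested and 0 were called. Fitted changes of all 8 were below 0, from -0.74 ± 0.47 (SE, 4 cell types) for miR-19b to -0.07 ± 0.61 for miR-92a, with an adjusted p of 0.99 for each. Their median was -0.39, beside -0.09 over all 185. The miR-92a change was at 0.23 without CD4, at 0.33 in DN3 and Treg alone and at 0.37 with median-of-ratios scaling.

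**Figure D4:**
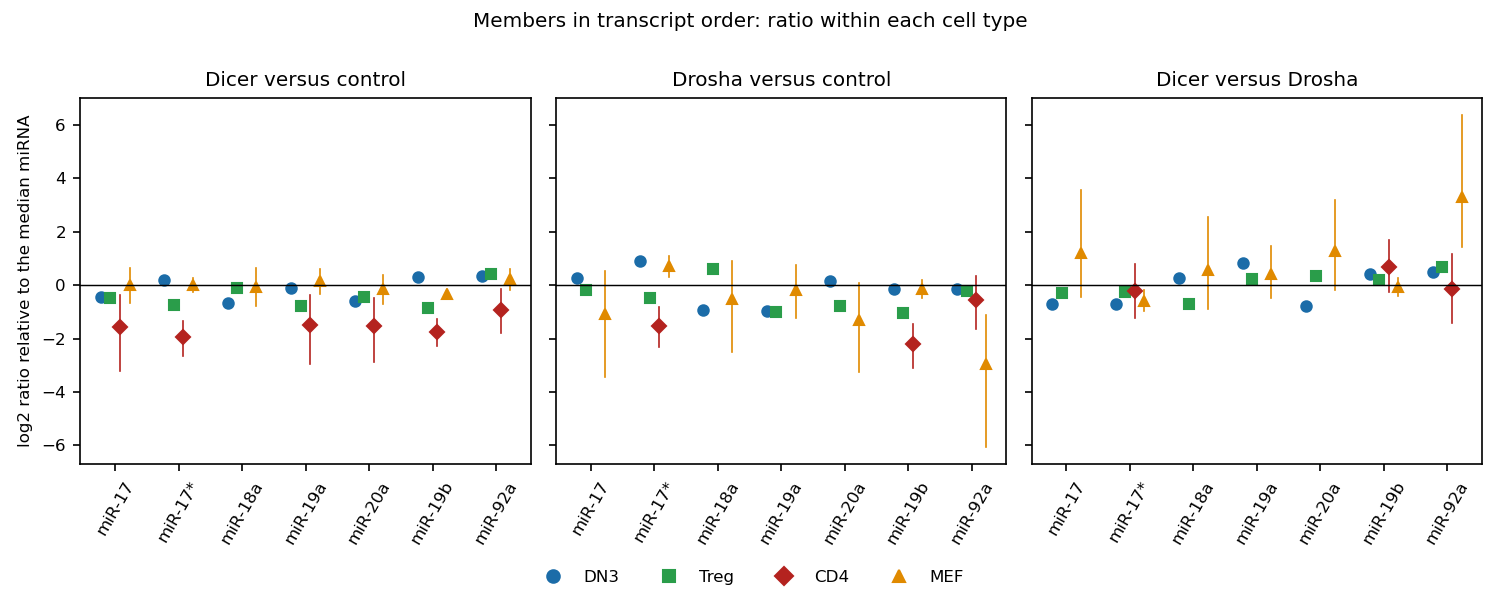
Log2 ratio of each member strand relative to the median miRNA, in the order of the hairpins along the transcript, with cell types as symbols. Vertical lines are 95% exact intervals from implied reads (CD4 and MEF only), and in the left panel miR-92a is the highest symbol of each cell type.

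In Drosha-deficient cells against control, the median miRNA was shifted by -0.38 (DN3), -0.13 (Treg), -1.20 (CD4) and -0.95 (MEF) on the deposited scale. In DN3 the members parted from each other by 1.88 log2 units: miR-17* was at 0.90, miR-17 at 0.27 and miR-20a at 0.17, against -0.94 for miR-18a and -0.97 for miR-19a. miR-17, miR-20a and miR-20a* were above the median miRNA but below control on the deposited scale (-0.11, -0.21 and -0.37). In Treg miR-18a was the highest at 0.60, and miR-19b (-1.02) and miR-19a (-1.007) were the lowest. In DN3 miR-19b was at -0.13, so miR-19a alone of that pair was low in both cell types, and miR-18a was low in DN3 and high in Treg. That pattern was not particular to miR-18a. Its paralog miR-18b was at -0.70 in DN3 and 0.77 in Treg, and miR-32 at -2.53 and 0.95. No other related strand compared was low in DN3 and high in Treg.

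In CD4 Drosha only miR-17*, miR-19b and miR-92a were listed, on about 16, 14 and 10 reads, and 85 names in all were listed there against 272 in CD4 control. miR-19b was at -2.22, miR-17* at -1.52 and miR-92a at -0.56 relative to the median miRNA. The members that were not listed were lower than control by at least 6.56-fold for miR-20a, 5.44-fold for miR-19a, 4.87-fold for miR-17 and 2.47-fold for miR-18a on the deposited scale, against the floor of 526. In MEF Drosha miR-92a was the lowest at -2.97 and miR-17* the highest at 0.71. On the deposited scale the miR-92a ratio was -3.92 (95% exact interval -7.01 to -2.06) and the miR-17* ratio -0.24 (-0.63 to 0.14). These were picked as the lowest and highest of 7 strands, and the intervals cover counting error only, so their gap is not a test. miR-92a rests on about 2 reads in MEF Drosha. miR-20a (-1.31) and miR-17 (-1.08) were also past 1 log2 unit, on about 4 and 3 reads in Drosha, while miR-19b was at -0.15 and miR-19a at -0.17.

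Counted by that size, 0 of 9 member strands in DN3 lay at least 1 log2 unit from the median, beside 38.7% of 168 miRNAs. In Treg 2 of 8 were, both lower, where 11.1% of 171 miRNAs were lower by that much and 32.2% past it in either direction. In CD4 it was 2 of 3, both lower, where 26.2% of 80 were lower and 66.2% past it either way. That CD4 background again holds only names that reach the floor in Drosha, which tilts its median. In MEF it was 3 of 7, all lower, where 15.9% of 227 were lower and 36.6% past it either way. These counts of 2 or 3 strands rest on few reads in CD4 and MEF. The SD of the ratios, about their own mean, was lower over the members than over all names in each cell type. With members first, it was 0.61 and 1.11 in DN3, 0.53 and 1.29 in Treg, 0.83 and 3.15 in CD4, and 1.17 and 1.62 in MEF. All names compared include those of low value, and this difference was not tested. Summed, the cluster in Drosha was at 0.12 in DN3 (-0.26 on the deposited scale, so the direction depends on the scale), -0.56 in Treg, -2.03 in CD4 (95% exact interval -2.52 to -1.58, about 40 reads) and -0.05 in MEF (-0.29 to 0.17). Without miR-19b and miR-92a the MEF value was 0.27.

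Markers of other blood cells differed between libraries in Treg and in DN3. Erythroid miRNAs (miR-451, miR-144 and miR-486, of which 3 of 3 were listed in each) took 0.831% of Treg Drosha and 0.120% of Treg control, and the myeloid miR-223 stood at 588 in Treg Drosha and 24 in Treg control. In Treg Dicer these were 0.0975% and 746. In DN3 the erythroid share was 0.886% in Dicer, 0.45% in Drosha and 0.556% in control, and miR-223 stood at 121 in DN3 Dicer, 15 in DN3 Drosha and 28 in DN3 control. Their part in the member ratios of either cell type was not tested.

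Across cell types limma called 0 of 185 miRNAs for Drosha against control (0%), with 37 at an unadjusted p under 0.05. Of the 8 member strands tested 0 were called, and all 8 fitted changes were below 0, with a median of -0.97 beside -0.52 over all 185. They ran from -1.64 ± 0.61 (SE, 4 cell types, adjusted p = 0.21) for miR-92a and -1.55 ± 0.47 (adjusted p = 0.18) for miR-19b to -0.49 ± 0.51 for miR-20a* (2 cell types). miR-92a, miR-19b and miR-19a (-1.20 ± 0.40, 3 cell types, adjusted p = 0.18) had an unadjusted limma p under 0.05. The fit left CD4 out for miR-17, miR-18a, miR-19a and miR-20a, since CD4 Drosha does not list them.

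Dicer-deficient cells were also set directly against Drosha-deficient cells. miR-92a, miR-19a and miR-19b were higher in Dicer in each cell type where both libraries listed them, on the deposited scale. For miR-92a the log2 ratios on that scale were 0.90 in DN3, 0.66 in Treg, 0.78 in CD4 (95% exact interval -0.50 to 2.11) and 3.95 in MEF (2.09 to 7.04). Relative to the median miRNA they were 0.48, 0.67, -0.15 and 3.30 in DN3, Treg, CD4 and MEF, so CD4 turns round on that scale. miR-19a was at 0.84 in DN3, 0.25 in Treg and 0.43 in MEF relative to the median miRNA. miR-19b was at 0.41 (DN3), 0.21 (Treg), 0.69 (CD4) and -0.07 (MEF) relative to the median miRNA, so MEF turns round for it. miR-20a and miR-17 differed in direction by cell type, at -0.79 and -0.72 in DN3, and at 1.26 and 1.19 in MEF.

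Past 1 log2 unit were 0 of 9 member strands in DN3 (41.2% of 170 miRNAs), 0 of 8 in Treg (15.6% of 173), 0 of 3 in CD4 (29.6% of 71) and 3 of 7 in MEF (38.9% of 221). The 3 in MEF, all higher in Dicer, where 19.5% of 221 miRNAs were higher by that much, were miR-92a, miR-20a and miR-17, which rest on about 2, 4 and 3 reads in Drosha. limma called 1 of 185 miRNAs (0.541%), the non-member miR-320, and 0 of 8 member strands. Fitted member changes were all above 0, led by miR-92a at 1.56 ± 0.61 (SE, 4 cell types, unadjusted p = 0.030, adjusted p = 0.42), with a median of 0.52 beside 0.40 over all 185. Without MEF, 3 of 8 were below 0, and in DN3 and Treg alone 4 of 8 were. The Dicer to control and Drosha to control comparisons share the control libraries, so their likeness is not a separate result.

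The sequences behind the values were given in DN3 and Treg. The 97 distinct member sequences included 85 from the mature strands and 12 that the lists file as "pre", and 40 were listed in all 6 of these libraries. Starts were nearly uniform: for every strand and library 93.2% to 100% of the value began at the reference 5′ base. The main seed was therefore the same in all 3 genotypes. miR-19a in Treg control was the lowest, with 6.84% beginning upstream of the reference start, against 0% in Treg Dicer and Drosha. Sequences under the floor of 10 are not listed, so minor starts of low members could not be compared between genotypes.

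Ends varied more. The forms of miR-20a, the most abundant member in these libraries, are shown, with capitals for the bases after position 20.
miR-20a, 21 nt: taaagtgcttatagtgcaggT
miR-20a, 22 nt: taaagtgcttatagtgcaggTA
miR-20a, 23 nt: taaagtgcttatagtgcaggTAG
miR-20a, 24 nt: taaagtgcttatagtgcaggTAGT
The 23 nt form stood at 39026 in DN3 Dicer, 60002 in DN3 Drosha and 67171 in DN3 control, and at 4661, 4339 and 5855 in Treg Dicer, Drosha and control. The 21 nt form stood at 7768, 3822 and 7491 in DN3 Dicer, Drosha and control, and at 1541, 713 and 3190 in Treg. Forms under 22 nt made up 14.7% of miR-20a in DN3 Dicer, 5.48% in DN3 Drosha and 9.70% in DN3 control, and 20.6%, 12.5% and 29.4% in Treg Dicer, Drosha and control. Drosha libraries thus held the smallest share of short forms in both cell types.

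The shift of miR-20a was shared by most members and by most other miRNAs. In DN3 Drosha the mean length of 6 of 6 main strands was above control, and 80.7% of 119 other names were. In Treg Drosha 6 of 6 were too, miR-92a and miR-18a by less than 0.1 nt, as were 68.2% of 110 others. In Dicer the cell types went opposite ways: 0 of 6 were longer than control in DN3 (12.8% of 133 others) and 6 of 6 in Treg (75.7% of 115 others). The largest differences were those of miR-17 in Treg, with mean lengths of 22.43 nt in Dicer, 22.91 nt in Drosha and 22.08 nt in control. miR-92a varied least, at 21.91 to 21.98 nt. miR-17* in Treg went against the main strands in Drosha only, at 21.04 nt in Drosha, 21.32 nt in Dicer and 21.24 nt in control.

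**Figure D5:**
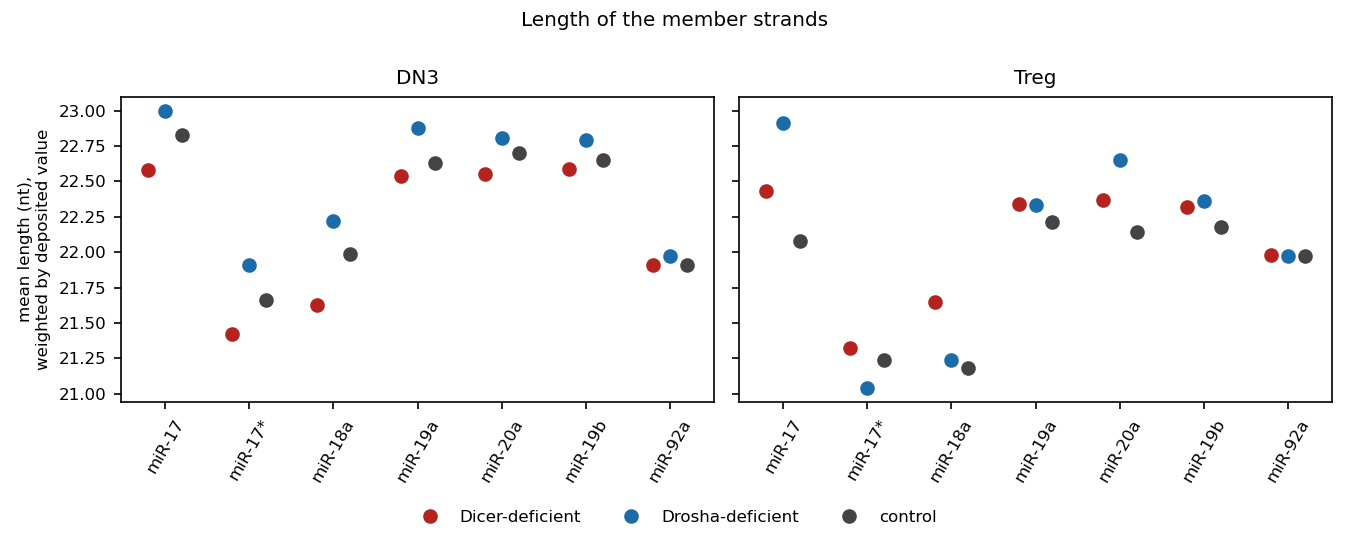
Mean length (nt, weighted by the deposited value) of the 6 main strands and miR-17* in DN3 and Treg libraries, with Dicer, Drosha and control from left to right. In DN3 Drosha lies above control for each of the strands drawn, and Dicer lies below or level with control.

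The end of miR-92a also tells its copies apart. The reference form has 21 nt, but the leading form in all 6 libraries had 22 nt, and its last base, in capitals, is encoded differently by the chromosome 14 and X copies.
miR-92a, chromosome 14 copy only: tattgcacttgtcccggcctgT
miR-92a, X chromosome copy only: tattgcacttgtcccggcctgA
The chromosome 14 form stood at 16649, 9315 and 12831 in DN3 Dicer, Drosha and control, and at 3610, 2261 and 2887 in Treg. The X form stood at 1271, 536 and 1140 in DN3 Dicer, Drosha and control, and at 320, 217 and 248 in Treg. All sequences that match only the chromosome 14 hairpin made up 87.0% to 91.5% of miR-92a, those that match only the X hairpin 5.25% to 7.72%, and the rest match both. Such matching cannot exclude bases added after cutting. For miR-19b 97.5% to 99.0% matched both copies, so its source could not be told.

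Entries filed as "pre" were mostly the other strands of 2 hairpins. Those at the 5′ arm of the chromosome 14 miR-92a hairpin (miR-92a-1-5p) summed to 758 in DN3 Dicer, 803 in DN3 Drosha and 1194 in DN3 control, and to 55, 53 and 164 in Treg Dicer, Drosha and control. Those at the 5′ arm of the chromosome 14 miR-19b hairpin summed to 101, 30 and 135 in DN3 Dicer, Drosha and control. In each case control was the highest. The miR-92a* name in these lists was the 5′ arm of the X-linked copy.

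Among the paralogs, miR-93, the leading miRNA of the miR-106b cluster in these lists, was listed in all 12 libraries. It stood at 16750, 31915 and 20674 in DN3 Dicer, Drosha and control, at 3994, 4811 and 6241 in Treg, at 10323, 6053 and 57880 in CD4 and at 3548, 1628 and 4876 in MEF. In DN3 Drosha it was 1.007 log2 units above the median miRNA, while its transcript partners miR-25 and miR-106b were at -0.85 and -0.68, so members cut from that transcript also parted. miR-25, which shares the seed of miR-92a, stood at 4215, 1535 and 3609 in DN3 Dicer, Drosha and control, at 1169, 948 and 1348 in Treg, at 1129, not listed and 770 in CD4, and at 244, 78 and 215 in MEF. Relative to the median miRNA its Dicer to control ratio was 0.20 (DN3), -0.08 (Treg), 0.62 (CD4) and 0.37 (MEF). Summed, the 7 paralog miRNAs that share no name with a member took 4.49%, 6.25% and 5.34% of DN3 Dicer, Drosha and control, and 1.28%, 0.664% and 6.26% of CD4. In limma 8 related miRNAs were tested, with 0 called in each of the 3 comparisons.

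Of 48 non-member names listed in all 12 libraries, those whose log2(value + 1) followed the summed cluster most closely were miR-30d (Pearson r = 0.92), miR-30e (0.92) and miR-103 (0.90). These are descriptions over 12 libraries that share cell types and list formats. miR-30e, for one, stood at 8506, 9553 and 10606 in DN3 Dicer, Drosha and control and at 514, 439 and 800 in MEF.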

How the data were processed

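Small RNA reads were adaptor-clipped and mapped to miRNA loci, per the labels. For the aligner, read counting and build, the sources used here give nothing. The deposited values are whole-number scores that the authors had normalised to a near-common total per library. Values were summed per miRNA name over guide and passenger entries (430 names), leaving out pre and loop entries. A miRNA entered the fit (limma 3.58.1, R 4.3.3, log2(value + 1), genotype plus cell type) with each cell type whose 3 libraries all listed it at 10 or more, given at least 2 such cell types. Benjamini-Hochberg adjustment ran over 185 names, at a threshold of 0.05. The fit was also run on simulated data with independent normal noise and the same genotype change in every cell type. Its recovery is not given here, so the run does not say how many changes the fit could miss in these data. Ratios within a cell type used a pseudocount of 0.5 and the median of miRNAs found in both libraries, summing to at least 50. Reads were implied from the coarsest value step that fitted (tolerance 0.6), with exact 95% intervals that cover counting error only. Every member was described, with the related miRNAs and the 3 names most alike. Members and lists were chosen with earlier results of these data known. With no replicate of any library, p-values measure spread between cell types.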

Additional observations from a re-analysis of the deposited data

Results flagged for a closer look

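In 8 cases a member pointed opposite ways in 2 cell types, both on the deposited scale and relative to the median miRNA. With 1 library per group none of these differences was tested, and values below are log2 ratios relative to the median miRNA. For Dicer against control, miR-17* was at 0.21 in DN3 and -1.95 in CD4, a difference of 2.16. miR-19b was at 0.30 in DN3 and -1.74 in CD4 (difference 2.04), and miR-92a at 0.41 in Treg and -0.91 in CD4 (difference 1.33). For Drosha against control, miR-17* was at 0.90 in DN3 and -1.52 in CD4 (difference 2.42), and miR-18a at 0.60 in Treg and -0.94 in DN3 (difference 1.54). The non-members miR-18b and miR-32 parted between Treg and DN3 in the same directions as miR-18a. For Dicer against Drosha, miR-17 was at 1.19 in MEF and -0.72 in DN3 (difference 1.91). miR-20a was at 1.26 in MEF and -0.79 in DN3 (difference 2.06), and miR-18a at 0.58 in MEF and -0.69 in Treg (difference 1.27). The 4 differences with CD4 rest on shallow deletion libraries, whose floors also tilt the median miRNA toward names high there. The MEF Drosha values rest on about 3 to 4 reads.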

How the results depend on the processing

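No paired analysis was possible beyond the block of cell type that the fit already has, because each cell type and genotype has 1 library. Calls of members stayed at 0 under all 14 alternatives of each of the 3 comparisons. For Drosha against control limma called 6 miRNAs with only CD4 and MEF and 7 over the 51 names that no library lacked (this choice was made after seeing the data). For Dicer against control it called 1 with only CD4 and MEF. For Dicer against Drosha the 1 call became 3 with only CD4 and MEF, 3 over the 51 names, 0 with no filter, with floors or with only DN3 and Treg, and 0 to 2 when a cell type was left out (0 without CD4 or without MEF, 2 without Treg). Fitted member changes turned round as follows. With floors, miR-20a* was at 0.34 for Drosha against control and 0.47 for Dicer against control. For Dicer against control miR-92a was at 0.37 with median-of-ratios scaling, 0.33 with only DN3 and Treg, and -0.22 to 0.23 when a cell type was left out. For Dicer against Drosha with only DN3 and Treg, miR-17 was at -0.29, miR-17* at -0.27, miR-18a at -0.0093 and miR-20a at -0.010. There miR-17* was at -0.14 with median-of-ratios scaling. Leaving out a cell type gave -0.29 to 0.77 for miR-17, -0.16 to 0.17 for miR-17*, -0.0093 to 0.95 for miR-18a and -0.010 to 1.12 for miR-20a.

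On the deposited values as they stand, not set against the median miRNA, the summed cluster was at -0.26 (DN3), -0.69 (Treg), -3.23 (CD4) and -1.001 (MEF) for Drosha against control, at -0.46 (Treg) and -0.32 (MEF) for Dicer against control, and at -0.072 (DN3), 1.44 (CD4) and 0.68 (MEF) for Dicer against Drosha. Without miR-19b and miR-92a it was at -0.53 (DN3), -0.48 (Treg) and 0.012 (MEF) for Dicer against control, 0.27 (MEF) for Drosha against control, and -0.72 (DN3) and 0.12 (Treg) for Dicer against Drosha. With guide strands only, MEF was at -0.41 for Drosha against control and 0.34 for Dicer against Drosha. The cause of these shifts was not tested. Depth limits the CD4 deletion libraries and the low MEF Drosha values most.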
